A study of Mus musculus with 4 samples.

Results

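The Hippo pathway genes described here are the angiomotins Amot, Amotl1 and Amotl2, the coactivators Yap1 and Wwtr1 (which encodes TAZ), the transcription factor Tead1, the kinases Lats1 and Lats2, and the upstream regulators Nf2 and Ajuba. They were chosen by name, and all 10 symbols were found among the 21470 genes of the deposited table. Transcripts were measured in mouse embryos at 2 times and in 2 dissected tissues, giving 4 groups of 5 barcoded libraries. These are D10 ICM and D10 TE, and E4 ICM and E4 TE, where ICM (inner cell mass) is the embryonic side and TE (trophectoderm) the extra-embryonic side. All embryos were wild type, from B6D2F1 males crossed with ICR females. In diapause the blastocyst pauses its development and does not implant until later. The title of the series speaks of times ahead of and following diapause, and the list of barcodes calls E4 before and D10 day 6. The protocol describes all dissected embryos as in diapause, a conflict that the sources do not settle.

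The Hippo pathway is a kinase cascade that holds the coactivators YAP and TAZ in the cytoplasm. LATS kinases phosphorylate YAP and TAZ at cell junctions with the help of NF2 and angiomotins, while unphosphorylated YAP enters the nucleus and binds TEAD factors. In the mouse blastocyst this switch separates the lineages: polarized outer cells keep YAP in the nucleus and become trophectoderm, and in apolar inner cells junctional AMOT and NF2 promote LATS activity, so that YAP stays out. The switch itself acts on proteins and their place in the cell. The transcript levels given here do not measure either.

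Total counts per library ran from 144276 to 1010354, with 9458 to 14402 genes detected. Marker lists went with the tissue labels as sums, but not gene by gene. The summed level of 10 trophectoderm genes was 3942 to 6188 CPM (counts scaled to library size) in D10 ICM, 8556 to 11095 in D10 TE, 2484 to 3975 in E4 ICM and 8121 to 11309 in E4 TE. The sum of 10 epiblast genes was 863 to 1651 CPM in D10 ICM and 1652 to 2954 in E4 ICM, against 290 to 502 in D10 TE and 201 to 355 in E4 TE. For 10 primitive endoderm genes it was 7911 to 10870 CPM in D10 ICM, 2666 to 3904 in D10 TE, 2010 to 4538 in E4 ICM and 1053 to 1485 in E4 TE. Elf5, of the trophectoderm list, averaged 161 CPM in D10 ICM and 69.0 in D10 TE. Dab2, of the primitive endoderm list, averaged 1691 CPM in D10 ICM, 2595 in D10 TE, 356 in E4 ICM and 951 in E4 TE. Most of the epiblast sum in TE was Tfcp2l1 (394 CPM in D10 TE and 257 in E4 TE), which averaged 482 in D10 ICM and 389 in E4 ICM. Of the defining genes, Fgf4 and Prdm14 were at 0 in both TE groups, and Hand1, a factor of trophoblast giant cells, was at 0 in both E4 groups. Uterine epithelium markers summed to 168 to 367 CPM in D10 ICM, 589 to 768 in D10 TE, 70.5 to 186 in E4 ICM and 193 to 368 in E4 TE. In D10 TE that sum was carried by Wfdc2 (445 ± 65.4 CPM) and Lif (221 ± 46.8 CPM), while Ltf and Pgr were at 0, Calb1 at 1.3 and Esr1 at 6.01 CPM. Muc1, also on that list, averaged 20.6 ± 6.39 CPM there with counts in all 5 libraries, whereas its E4 TE mean was 0.797 CPM. Muc1 means for the ICM were 15.2 CPM at D10 and 3.42 CPM at E4. Blood markers reached 130 CPM in 1 D10 ICM library and 80.6 CPM in 1 E4 TE library, and at most 5.22 CPM in the libraries of the D10 TE and E4 ICM groups. The part of these marker levels in the results below was not tested. In bulk tissue, fewer cells of a type and less RNA per cell cannot be told apart. Each group was also amplified as 1 pool, so pool and group cannot be told apart.

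Amot was higher at D10 than at E4 in both tissues, and higher in ICM than in TE at E4. In the TE, Amotl2, Tead1 and Yap1 were also higher at D10. In the D10 embryos Ajuba was higher in ICM than in TE. Wwtr1, Lats2 and Nf2 passed this test in no comparison with all libraries, and Amotl1 and Lats1 had too few counts to enter it. The test was edgeR's quasi-likelihood test on 6943 genes, with Benjamini-Hochberg adjusted p-values and a threshold of 0.05. Values are log2 differences ± standard error (SE), and group levels are mean CPM ± SD over 5 libraries.

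For D10 ICM against E4 ICM, 1 of the 8 tested members passed, higher at D10, against 23.7% of all genes tested. For D10 TE against E4 TE, 4 of 8 passed, all higher at D10, against 21.8% of all genes. The median log2 difference of the 8 members was 0.37 in the ICM and 0.58 in the TE, beside medians over all genes of -0.00306 and 0.02. For E4 ICM against E4 TE, 1 of 8 passed, higher in ICM, against 31.2% of all genes, and for D10 ICM against D10 TE, 1 of 8, also higher in ICM, against 25.5%. Whether the change from E4 to D10 differed between the tissues was tested as the difference of the D10 minus E4 changes, ICM minus TE. In edgeR 0 of 8 members passed, against 4.98% of all genes. Tead1 was the 1 member with an unadjusted p under 0.05 there, and DESeq2 and limma voom likewise called 0 members.

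**Figure D1:**
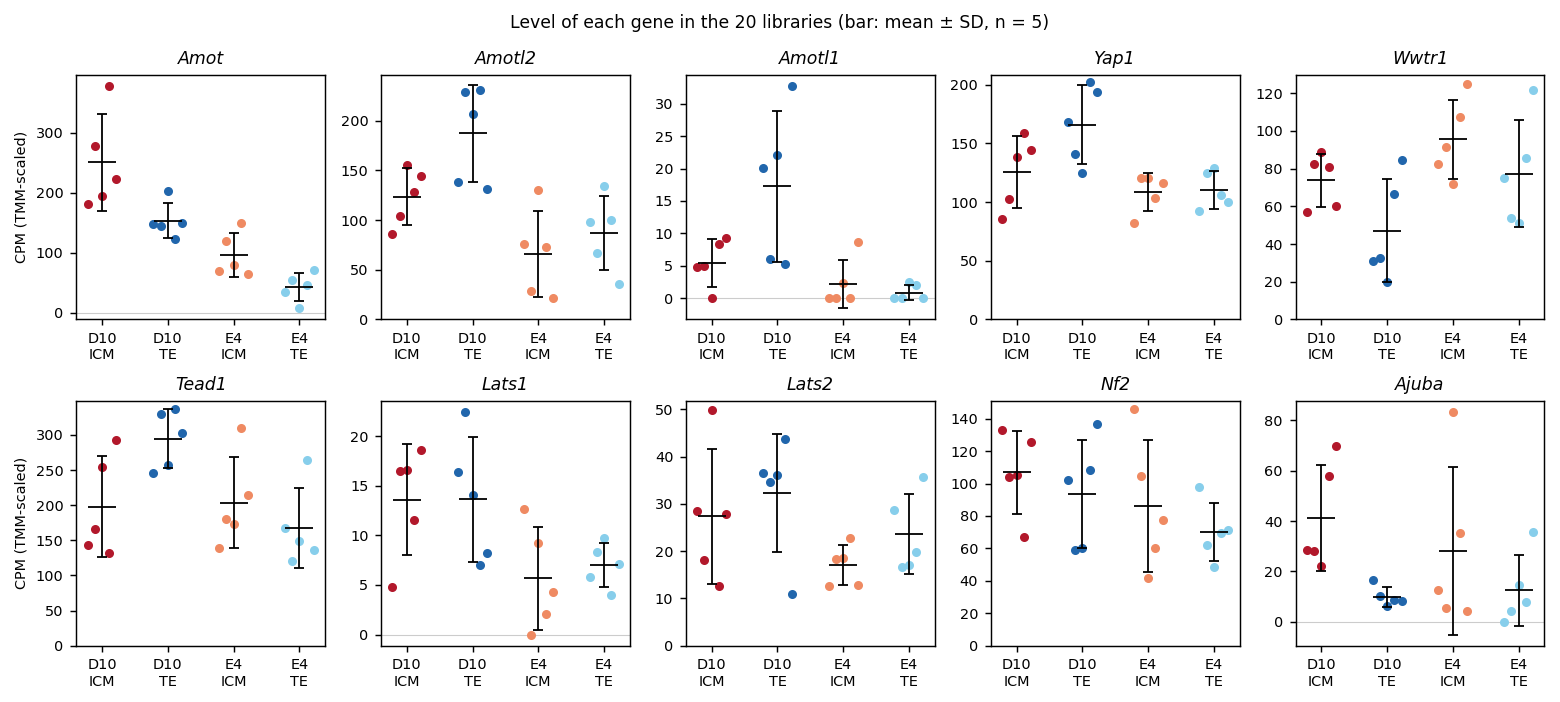
CPM of each of the 10 genes (vertical axes, each from its own scale) in D10 ICM, D10 TE, E4 ICM and E4 TE, with 1 point per library, a bar at the mean and whiskers of 1 SD (n = 5 per group). The 5 D10 ICM libraries of Amot (181 to 379 CPM) lie above all 5 E4 ICM libraries (64.5 to 149 CPM), and the 5 D10 TE libraries (122 to 203 CPM) above all 5 E4 TE libraries (7.30 to 71.5 CPM).

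Angiomotins bind actin filaments and YAP, and junctional AMOT recruits and activates LATS in inner cells of the early embryo. Amot (ENSMUSG00000041688) lies on the minus strand of chromosome X at 145446425 to 145505181 (GRCm38, GENCODE vM21), with no overlapping gene. Its level was 181, 279, 194, 379 and 223 CPM in the D10 ICM libraries, against 69.7, 120, 78.8, 149 and 64.5 CPM in the E4 ICM libraries (replicates 1 to 5). All D10 ICM libraries were thus above all E4 ICM libraries. The difference was log2 1.36 ± 0.31, a 2.57-fold higher level at D10 (adjusted p = 0.00212, edgeR).

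In the TE libraries Amot stood at 148, 145, 203, 122 and 150 CPM at D10, against 34.5, 53.9, 7.30, 45.8 and 71.5 CPM at E4. Again every D10 library was above every E4 library, with E4 TE replicate 3 the lowest of all 20. The fitted difference was log2 1.95 ± 0.35, or 3.88-fold (adjusted p = 0.000236, edgeR). The D10 minus E4 changes of Amot differed by log2 -0.59 ± 0.47, ICM minus TE, which did not pass (adjusted p = 0.527, edgeR). The interval of 2 SE around that difference ran from -1.52 to 0.34. Both D10 against E4 calls of Amot held without any single library, at log2 1.14 to 1.59 in the ICM and 1.59 to 2.13 in the TE.

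Between the tissues at E4, Amot averaged 96.4 ± 36.6 CPM in ICM and 42.6 ± 23.9 CPM in TE. The groups overlapped slightly, since TE replicate 5 was above 2 of the ICM libraries, and in 4 of the 5 litters ICM was the higher library. This difference of log2 1.33 ± 0.37 passed (adjusted p = 0.00685, edgeR) and held without any single library (adjusted p up to 0.0369). At D10 the means were 251 ± 80.8 CPM in ICM and 154 ± 29.6 CPM in TE, with ICM higher in 4 of 5 litters. There the difference of log2 0.74 ± 0.29 did not pass (adjusted p = 0.0627, edgeR). With 1 library left out it passed in 2 of 10 cases, without D10 ICM replicate 1 (adjusted p = 0.0494) or D10 TE replicate 3 (0.0491). In the other cases the adjusted p was up to 0.215. The difference passed with no filter (0.0302) and with the D10 groups alone in the fit (0.0249). With litter as a block in a paired fit it did not pass (0.0542). The order of the group means was D10 ICM, D10 TE, E4 ICM, E4 TE, and the ranges of each neighbouring pair in that order overlapped.

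Because Amot is X-linked, transcripts of 4 Y-linked genes were summed in each library. The sum was 216 to 325 CPM in 6 libraries (replicate 2 at E4 and replicates 3 and 5 at D10, in both tissues) and at most 9.51 CPM in the other 14. Without those 6 libraries Amot differed by log2 1.61 between D10 ICM and E4 ICM (adjusted p = 0.00680), by 1.93 between D10 TE and E4 TE (adjusted p = 0.00531), and by 1.36 between E4 ICM and E4 TE (adjusted p = 0.0265, all edgeR). These Amot calls were kept without them, with similar differences and larger adjusted p-values than with all libraries. Between D10 ICM and D10 TE the difference without them was log2 1.04, which did not pass (adjusted p = 0.0702, edgeR). The part of X chromosome dosage in the Amot differences was not tested.

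Amotl2 (ENSMUSG00000032531; chromosome 9, 102716672 to 102733418, plus strand) encodes an angiomotin of the same family and is itself a known YAP target. It was measured at 139, 228, 207, 231 and 131 CPM in the D10 TE libraries, against 97.8, 66.4, 134, 99.6 and 35.8 CPM in the E4 TE libraries. The groups overlapped by 1 pair, as the lowest D10 library was below the highest E4 library. Amotl2 was 2.06-fold higher at D10 (log2 1.04 ± 0.33, adjusted p = 0.0247, edgeR). Leaving out 1 library ended the call in 5 of 10 cases: without E4 TE replicate 2 (adjusted p = 0.0725) or 5 (0.0729), and without D10 TE replicate 2 (0.0636), 3 (0.0517) or 4 (0.0622). It also ended when the 2 of 5 litters at E4 still in the zona pellucida, the coat around the early embryo, were left out (log2 0.92, adjusted p = 0.115).

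In the ICM, Amotl2 had 85.6, 104, 155, 128 and 144 CPM at D10 and 76.1, 28.7, 130, 72.4 and 21.5 CPM at E4. These groups overlapped through E4 ICM replicate 3, and the difference of log2 0.86 ± 0.35 did not pass (adjusted p = 0.0759, edgeR). Without that library it was 1.33 (adjusted p = 0.00878). That was the 1 of 10 cases of 1 library left out that passed (adjusted p up to 0.19). The ICM difference also passed with no filter (0.0255) and in limma voom (0.0353). Without the E4 litters with a zona it was log2 0.67 and did not pass (adjusted p = 0.274, edgeR). Amotl2 was the lower in ICM in all 5 E4 litters (log2 differences of -1.08 to -0.04) and in 4 of 5 D10 litters. At E4 the fitted difference was log2 -0.43 ± 0.36 (adjusted p = 0.383) and at D10 -0.62 ± 0.32 (adjusted p = 0.166, both edgeR). With litter as a block in a paired fit the D10 difference was -0.63 and passed (adjusted p = 0.0297). In the unpaired fit with 1 library left out it passed in 0 of 10 cases (adjusted p of 0.139 to 0.299).

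Amotl1 (ENSMUSG00000013076; chromosome 9, 14541966 to 14645056, minus strand), the remaining angiomotin, had few counts and shares its span with the annotated transcripts 4930584E12Rik and Gm34263. It had 11, 3, 11, 3 and 12 counts in the D10 TE libraries, against 0, 0, 1, 1 and 0 counts in the E4 TE libraries. The D10 TE libraries had the higher counts, but the 3 counts of 0 (E4 TE replicates 1, 2 and 5) allow up to 16.6, 12.5 and 20.8 CPM at those depths. D10 TE replicates 2 and 4 were at 6.12 and 5.24 CPM, so the groups are not shown to be apart. The ratio of the pooled counts, 40 against 2 and scaled to library size, was 11.9, with an exact 95% interval of 3.07 to 101 that covers counting error only. With counts of 0 taken as 0 CPM, a two-sided exact permutation test gave p = 0.00794, the smallest that 5 against 5 libraries can give, and 0.0635 after adjustment over the 8 tests made of Amotl1 and Lats1. In the ICM, Amotl1 had 1, 3, 0, 8 and 2 counts at D10 and 0, 0, 1, 0 and 2 at E4 (ratio 3.64, interval 1.02 to 19.7, exact permutation p = 0.206). At D10 the ratio of ICM to TE was 0.400 (0.201 to 0.751, exact permutation p = 0.0794).

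Promoter windows of RefSeq (GRCm38.p6), from 250 bases before to 50 bases after a transcript start, were searched for GGAATG, the core motif bound by TEAD factors, and its reverse complement CATTCC. Of the 10 genes 9 had a window (12 windows in all, none for Tead1), and 5 of the 9 held the motif. Counted by window it was 6 of 12, and the share over all 32851 windows of that length was 14.7%. The windows of Wwtr1 overlap and hold the same match, so that site is counted more than once. A match is a description of the letters and not a bound site. The 250 bases before the start are shown for Amotl2, Yap1 and Amot, which passed together in the TE, and for Ajuba, which passed between the tissues at D10, each read 5′ to 3′ on the strand of the gene with the motif in capitals. Amotl2 held 1 match at 65 bases before the start, Yap1 1 at 141 bases before it, Ajuba 2, the first at 186 bases before it, and Amot none. Ajuba's RefSeq start lies outside its GENCODE vM21 span. The Amot and Amotl2 windows lie inside theirs, whose 5′ ends are at 145505181 for Amot and 102716672 for Amotl2. The sequence at those ends was not searched.
Amotl2 (chr9:102717554-102717803, plus strand): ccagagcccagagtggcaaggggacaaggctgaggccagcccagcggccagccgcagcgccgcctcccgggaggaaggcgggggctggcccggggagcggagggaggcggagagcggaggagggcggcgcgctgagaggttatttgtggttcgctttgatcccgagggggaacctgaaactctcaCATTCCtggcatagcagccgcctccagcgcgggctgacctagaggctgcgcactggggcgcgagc
Yap1 (chr9:8004597-8004846, minus strand): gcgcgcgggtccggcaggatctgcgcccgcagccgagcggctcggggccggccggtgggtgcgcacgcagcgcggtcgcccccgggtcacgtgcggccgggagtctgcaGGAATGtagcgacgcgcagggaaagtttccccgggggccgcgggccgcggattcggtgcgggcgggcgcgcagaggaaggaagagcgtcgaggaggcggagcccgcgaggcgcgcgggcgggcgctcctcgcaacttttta
Amot (chrX:145487640-145487889, minus strand): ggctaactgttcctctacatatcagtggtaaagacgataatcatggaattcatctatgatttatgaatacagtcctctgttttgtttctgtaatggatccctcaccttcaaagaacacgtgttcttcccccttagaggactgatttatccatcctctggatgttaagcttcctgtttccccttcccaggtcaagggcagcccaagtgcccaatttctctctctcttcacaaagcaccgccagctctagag
Ajuba (chr14:54577662-54577911, minus strand): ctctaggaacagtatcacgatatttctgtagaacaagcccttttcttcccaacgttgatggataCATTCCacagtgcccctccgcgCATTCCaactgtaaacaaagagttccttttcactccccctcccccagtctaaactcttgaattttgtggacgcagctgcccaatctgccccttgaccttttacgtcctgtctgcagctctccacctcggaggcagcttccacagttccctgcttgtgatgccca

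Yap1 (ENSMUSG00000053110; chromosome 9, 7931999 to 8004596, minus strand, with Gm20416 annotated on the other strand) encodes YAP, the coactivator that the pathway restrains. It had 168, 141, 124, 203 and 194 CPM in D10 TE, against 92.1, 124, 129, 106 and 100 CPM in E4 TE. D10 TE replicate 3 was the one D10 library within the E4 range. Yap1 was 1.49-fold higher at D10 (log2 0.57 ± 0.20, adjusted p = 0.0458, edgeR). This call held without E4 TE replicate 3 or D10 TE replicate 3 and in none of the other 8 cases of 1 library left out (adjusted p up to 0.123). It missed the threshold in DESeq2 (adjusted p = 0.0542) and limma voom (adjusted p = 0.0568). In edgeR it was also lost with no filter (0.199), without the E4 litters with a zona (0.173) and in thinned libraries (0.0765). With the TE groups alone in the fit it was lost too (0.0581).

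In the ICM, Yap1 averaged 126 ± 30.6 CPM at D10 and 109 ± 16.1 CPM at E4 (log2 0.20 ± 0.21, adjusted p = 0.515, edgeR). The interval of 2 SE ran from -0.21 to 0.62. At E4 the tissues lay close together, with 82.4 to 120 CPM in ICM and 92.1 to 129 CPM in TE (log2 -0.02 ± 0.21, interval -0.45 to 0.40). At D10 the difference was -0.39 ± 0.20 (adjusted p = 0.160), with TE the higher library in 4 of 5 litters.

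Wwtr1 (ENSMUSG00000027803; chromosome 3, 57455649 to 57575910, minus strand, with the pseudogene Gm16016 on the other strand) encodes TAZ, the paralog of YAP. It had 31.0, 32.6, 20.1, 66.4 and 84.7 CPM in D10 TE, against 74.8, 53.9, 51.1, 85.7 and 122 CPM in E4 TE. D10 TE replicates 4 and 5 lay within the E4 range and the other 3 below it. The difference of log2 -0.69 ± 0.32 did not pass (adjusted p = 0.124, edgeR), but it was -0.997 without D10 TE replicate 5 (adjusted p = 0.0259). That was the 1 of 10 cases of 1 library left out that passed (adjusted p up to 0.257). In D10 ICM the level was 73.9 ± 14.2 CPM, against 95.6 ± 20.9 CPM in E4 ICM (log2 -0.35 ± 0.30, adjusted p = 0.441). ICM was the higher library in 4 of 5 litters at D10 (log2 0.69 ± 0.31, adjusted p = 0.104) and in 5 of 5 at E4 (0.35 ± 0.31, adjusted p = 0.420). The D10 difference passed without D10 TE replicate 5 (log2 0.995, adjusted p = 0.0187, edgeR) and in limma voom (0.89, adjusted p = 0.0288). It did not pass in the other cases of 1 library left out (adjusted p up to 0.25) or in the paired fit (0.0598). In the TE the estimates for Yap1 and Wwtr1 thus had opposite signs, and Wwtr1 did not pass.

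Tead1 (ENSMUSG00000055320; chromosome 7, 112679318 to 112906807, plus strand, with 2310014F06Rik and Gm44462 annotated within it) encodes one of the TEAD factors through which YAP and TAZ act on genes. Its level was 246, 330, 257, 337 and 303 CPM in the D10 TE libraries, against 167, 120, 148, 265 and 136 CPM in the E4 TE libraries. Only E4 TE replicate 4 reached into the D10 range. Tead1 was 1.72-fold higher at D10 (log2 0.79 ± 0.25, adjusted p = 0.0264, edgeR). The call held without E4 TE replicate 4 or D10 TE replicate 1 or 3, and was lost in the other 7 cases of 1 library left out (adjusted p of 0.0512 to 0.0825). It was also lost without the E4 litters with a zona (log2 0.62, adjusted p = 0.174). Without the 6 libraries with Y-linked transcripts, Amot alone of the 4 genes passed in the TE, and the differences were log2 1.02 for Amotl2 (adjusted p = 0.0709), 0.71 for Tead1 (0.0861) and 0.64 for Yap1 (0.0926).

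In the ICM, Tead1 had 143, 166, 255, 132 and 293 CPM at D10 and 139, 180, 174, 310 and 215 CPM at E4. The ranges largely coincided, with a difference of log2 -0.10 ± 0.26 (interval -0.61 to 0.42, edgeR). The D10 minus E4 changes differed by log2 -0.88 ± 0.36, ICM minus TE, which did not pass after adjustment (adjusted p = 0.168, edgeR). Within litters Tead1 was lower in ICM than in TE in 5 of 5 litters at D10 and in 1 of 5 at E4. The D10 difference between the tissues was log2 -0.61 ± 0.25 (adjusted p = 0.0757), and -0.66 with litter as a block in the paired fit (adjusted p = 0.0228), which passed. With the 6 libraries with Y-linked transcripts left out, it was -1.06 (adjusted p = 0.0158). With 1 library left out it passed in 2 of 10 cases (adjusted p of 0.0299 to 0.202, edgeR).

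**Figure D2:**
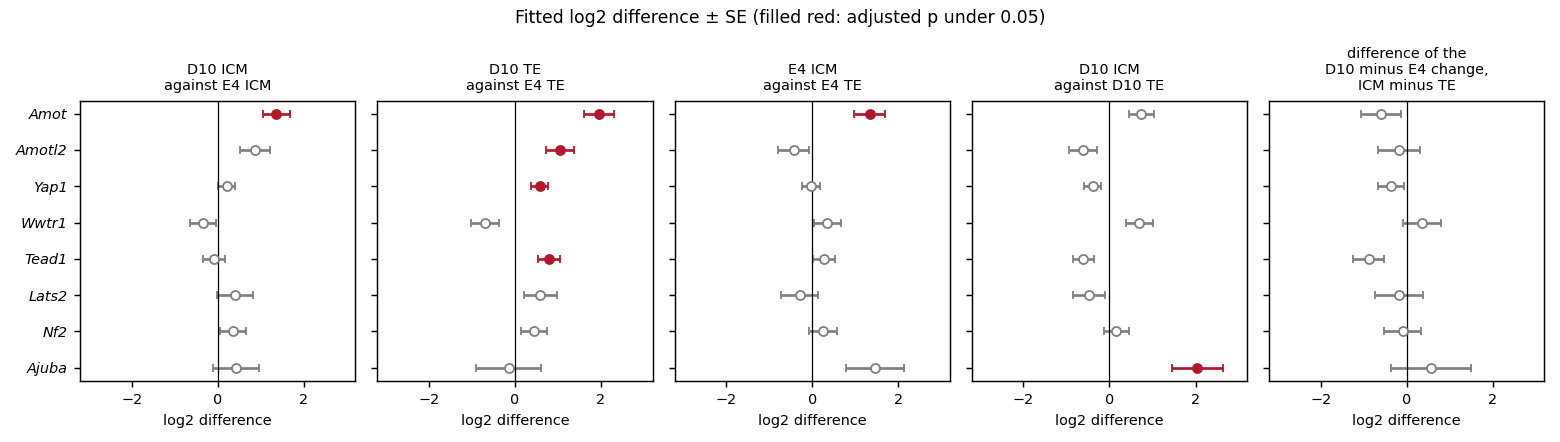
Fitted log2 difference (horizontal axes) ± SE of the 8 tested genes in the 5 comparisons, from 1 edgeR fit of 20 libraries, with red filled points for an adjusted p under 0.05. Amot lies right of 0 in each of the first 4 panels and passes in 3, Amotl2, Yap1 and Tead1 pass for D10 TE against E4 TE, and no gene passes in the last panel.

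LATS1 and LATS2 are the kinases that phosphorylate YAP and TAZ. Lats2 (ENSMUSG00000021959; chromosome 14, 57689662 to 57758388, minus strand) overlaps the protein-coding Gm49361 on the same strand, so its level is uncertain. It averaged 27.4 ± 14.2 CPM in D10 ICM, 32.4 ± 12.5 in D10 TE, 17.0 ± 4.26 in E4 ICM and 23.6 ± 8.38 in E4 TE. The difference between D10 and E4 was log2 0.40 ± 0.42 in the ICM (adjusted p = 0.524, edgeR) and 0.58 ± 0.38 in the TE (adjusted p = 0.294). Neither tissue comparison passed (log2 -0.47 ± 0.37 at D10 and -0.29 ± 0.43 at E4), so at this depth no change of Lats2 was detectable.

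Lats1 (ENSMUSG00000040021; chromosome 10, 7681214 to 7716460, plus strand) had too few counts for the fit. It had 1, 10, 3, 11 and 4 counts in D10 ICM, against 2, 0, 4, 1 and 1 in E4 ICM. Pooled, these were 29 against 8 counts, a ratio of 2.83 (exact 95% interval 1.26 to 7.15, counting error only). The permutation test did not pass (exact p = 0.0635). In D10 TE it had 9, 11, 7, 4 and 3 counts, against 1, 2, 4, 2 and 1 in E4 TE (ratio 2.02, interval 0.974 to 4.57, exact permutation p = 0.0794). The ratio of ICM to TE was 0.975 (0.573 to 1.65) at D10 and 0.695 (0.238 to 1.96) at E4.

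Nf2 (ENSMUSG00000009073; chromosome 11, 4765845 to 4849536, minus strand) encodes Merlin, the scaffold that brings LATS to the membrane. It averaged 107 ± 25.6 CPM in D10 ICM, 93.3 ± 33.3 in D10 TE, 85.9 ± 40.7 in E4 ICM and 70.0 ± 18.0 in E4 TE. Its ranges overlapped between all 4 groups. The difference between D10 and E4 was log2 0.35 ± 0.30 in the ICM (interval -0.26 to 0.96) and 0.44 ± 0.31 in the TE (interval -0.17 to 1.06), and neither passed (adjusted p of 0.441 and 0.324, edgeR). Between ICM and TE it was 0.16 ± 0.29 at D10 and 0.26 ± 0.32 at E4.

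Ajuba (ENSMUSG00000022178; chromosome 14, 54567472 to 54577558, minus strand) encodes a LIM-domain protein that binds LATS and restrains its activity. At D10 it had 28.5, 28.0, 22.2, 57.7 and 69.7 CPM in ICM, against 16.4, 10.2, 6.02, 8.73 and 8.20 CPM in TE. All 5 ICM libraries were above all 5 TE libraries, and ICM was the higher in 5 of 5 litters. These levels rest on few counts, 6, 17, 4, 55 and 15 in ICM and 9, 5, 3, 5 and 3 in TE. The lowest ICM library thus had 4 counts, and the separation of the libraries is uncertain. Ajuba was 4.11-fold higher in ICM (log2 2.04 ± 0.59, adjusted p = 0.0119, edgeR). This call held without any single library (adjusted p up to 0.0489) but not without the 6 libraries with Y-linked transcripts (log2 1.74, adjusted p = 0.0835).

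At E4 Ajuba had 12.7, 5.22, 83.4, 35.2 and 4.30 CPM in ICM, against 0, 4.15, 14.6, 7.97 and 35.8 CPM in TE, where the count of 0 allows up to 16.6 CPM at that library's depth. Both groups were widely spread and overlapped, and ICM was the higher in 4 of 5 litters. The difference was log2 1.47 ± 0.67 (adjusted p = 0.0998, edgeR). The difference between D10 and E4 was 0.42 ± 0.54 in the ICM (adjusted p = 0.617) and -0.15 ± 0.75 in the TE (interval -1.65 to 1.35).

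**Figure D3:**
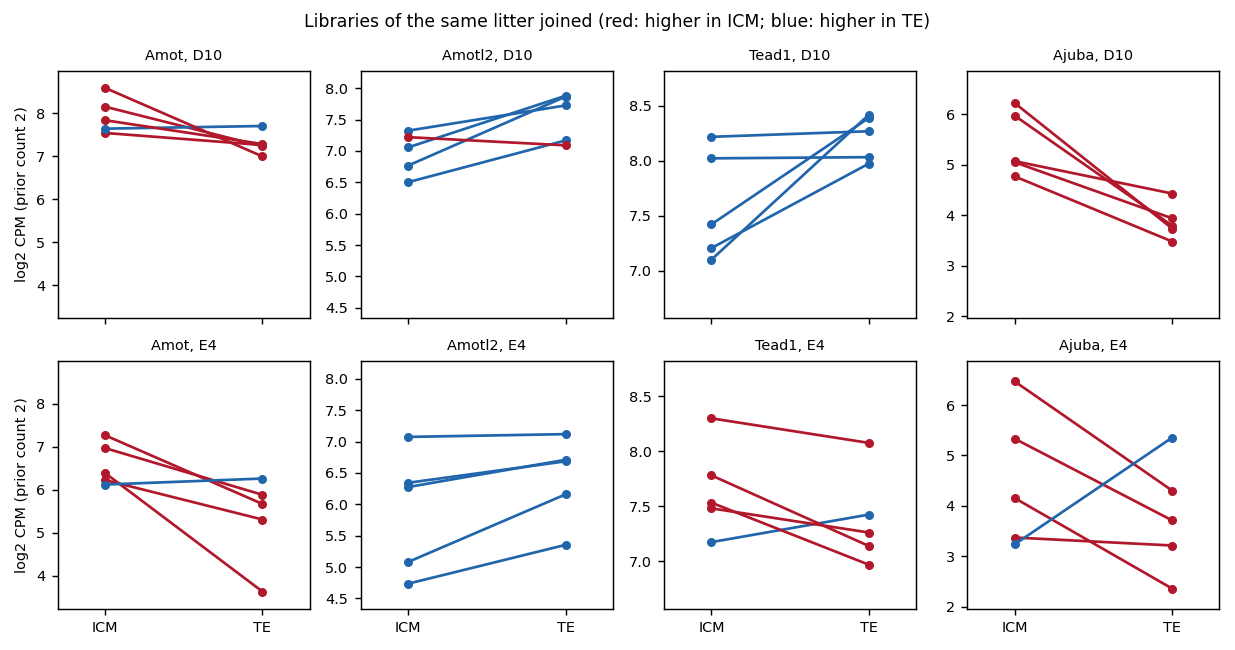
Level of Amot, Amotl2, Tead1 and Ajuba in log2 CPM (vertical axes, prior count of 2) in the ICM and TE libraries of each litter, joined by a line, with D10 in the upper row and E4 in the lower. Lines are red where ICM is higher and blue where TE is higher: at D10 Ajuba is higher in ICM in 5 of 5 litters and Tead1 higher in TE in 5 of 5.

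The 3 genes whose log2 levels, centred on their means, ran closest to Amot over the 20 libraries were Mtap, Nedd4 and Cyb5a, taken from 5388 genes with a mean level within 4-fold of Amot. The root mean square difference was 0.54 for Mtap, 0.58 for Nedd4 and 0.58 for Cyb5a, beside a median of 1.24 over these candidates. Mtap, an enzyme of methionine salvage, averaged 176 CPM in D10 ICM, 110 in D10 TE, 64.4 in E4 ICM and 26.0 in E4 TE. Nedd4, a ubiquitin ligase, averaged 339, 207, 111 and 49.1 CPM in the same order of groups, and Cyb5a, cytochrome b5, 320, 159, 129 and 55.1 CPM.

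The wider pathway was described through 6 lists of 100 further genes, of which 93 were in the table and 64 were tested. For D10 ICM against E4 ICM, 9 were higher and 5 lower (21.9%, against 23.7% of all genes). For D10 TE against E4 TE, 6 were higher and 11 lower (26.6%, against 21.8%). For E4 ICM against E4 TE, 4 were higher and 17 lower (32.8%, against 31.2%), and for D10 ICM against D10 TE, 8 were higher and 9 lower (26.6%, against 25.5%). Ywhaq was the 1 gene whose change differed between the tissues (1.56%, against 4.98%). In the 4 comparisons of groups these shares, which join both directions, lie near those of all genes. Higher and lower genes over all genes numbered 951 and 692, 826 and 687, 1094 and 1071, and 898 and 873 in that order. Between the tissues at E4 the wider genes were thus mostly lower in ICM, while the counts of all genes were nearly even. The median log2 differences of the 64 genes were 0.11, -0.11, -0.32 and -0.10 in that order of comparisons, beside -0.00306, 0.02, 0.03 and 0.01 over all genes.

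Among 9 tested kinases and adaptors of the core cascade, 0 passed for D10 ICM against E4 ICM in edgeR, 1 fell in the D10 TE, 1 was higher and 1 lower in E4 ICM than in E4 TE, and 2 were higher in D10 ICM than in D10 TE. The shares of all genes that passed were 23.7%, 21.8%, 31.2% and 25.5% in that order. Map4k4, a kinase that can activate LATS, averaged 85.9 ± 50.9 CPM in D10 ICM, 5.22 ± 5.24 in D10 TE, 137 ± 26.8 in E4 ICM and 36.0 ± 29.1 in E4 TE. It fell by 2.50 ± 0.60 on the log2 scale in D10 TE against E4 TE (adjusted p = 0.00336, edgeR). It was higher in ICM than in TE at D10 (log2 3.96 ± 0.51, adjusted p = 2.34e-06) and at E4 (2.12 ± 0.43, adjusted p = 0.000491). Taok3, of the TAO kinases that activate the cascade, was higher in ICM at D10 (34.9 ± 11.0 CPM against 10.5 ± 4.68 CPM in TE, log2 1.73 ± 0.41, adjusted p = 0.00229), and Mob1a, a LATS cofactor, was lower in ICM at E4 (log2 -0.69 ± 0.22, adjusted p = 0.0197).

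Of 6 tested junction scaffolds, 0 passed between the times in either tissue by edgeR, against 23.7% of all genes in the ICM and 21.8% in the TE. Occludin, encoded by Ocln, was lower in E4 ICM than in E4 TE (43.7 ± 31.5 against 147 ± 39.2 CPM, log2 -1.66 ± 0.34, adjusted p = 0.000585, edgeR). Of 15 tested inhibitors of the kinases, including the phosphatase complex of the striatins, 1 was higher and 1 lower at D10 in each tissue, beside the same shares of all genes. Strn4 was the higher one in both, at log2 0.83 ± 0.25 in the ICM (adjusted p = 0.0177) and 0.82 ± 0.25 in the TE (adjusted p = 0.0189). Mark3 fell by 0.64 in the ICM (adjusted p = 0.0404) and Strn3 by 1.11 in the TE (adjusted p = 0.0119) on the log2 scale. In E4 ICM 4 of the 15 were lower than in E4 TE, among them Limd1 (log2 -1.10), Stk24 (-0.83) and Slmap (-0.82), with adjusted p of 0.00271 to 0.0191 for these 3, and at D10 2 were, Mark3 (-1.30, adjusted p = 4.85e-05) and Stk24 (-1.26, adjusted p = 0.000697). Of all 6943 genes tested, 1071 were lower in ICM than in TE at E4 and 873 at D10.

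Tead2, Tead3 and Vgll3 were lower in ICM than in TE at both times. Tead3 averaged 17.7 ± 14.2 CPM in D10 ICM and 113 ± 46.4 CPM in D10 TE (log2 -2.30 ± 0.46, adjusted p = 0.000438, edgeR), and 32.4 ± 27.2 CPM in E4 ICM and 254 ± 107 CPM in E4 TE (log2 -2.94 ± 0.44, adjusted p = 1.79e-05). Tead2 was lower in ICM as well, by log2 -1.12 ± 0.27 at D10 (adjusted p = 0.00325) and -1.43 ± 0.31 at E4 (adjusted p = 0.000853). Vgll3, a TEAD cofactor, was lower in ICM by -1.47 ± 0.38 at D10 (adjusted p = 0.00526) and -2.02 ± 0.36 at E4 (adjusted p = 0.000140). Tead4, the TEAD factor required for trophectoderm, averaged 41.2 ± 16.1 CPM in D10 ICM and 52.7 ± 10.2 CPM in D10 TE and passed in no comparison. Runx1, a partner of YAP in other tissues, was higher in D10 ICM than in E4 ICM (log2 1.26 ± 0.40, adjusted p = 0.0239) and than in D10 TE (2.25 ± 0.41, adjusted p = 0.000192).

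Across the 11 tested partners the counts of higher and lower genes were 1 and 1 for D10 ICM against E4 ICM, 0 and 5 for D10 TE against E4 TE, 0 and 4 for E4 ICM against E4 TE, and 2 and 3 for D10 ICM against D10 TE. Of all genes, 23.7%, 21.8%, 31.2% and 25.5% passed in that order. For D10 TE against E4 TE, 826 of all genes were higher and 687 lower. Tead3 was 1 of the 5 that fell at D10 in the TE, by 1.18 ± 0.38 on the log2 scale (adjusted p = 0.0255, edgeR). Tead1 thus rose in the TE at D10 while Tead3 fell.

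Of 22 listed YAP and TAZ target genes that are not among the 10 members, 5 had enough counts to test. In the ICM, 3 of them were higher at D10 and 1 lower, with a median log2 difference of 2.55. Of all genes tested, 23.7% passed in that comparison. The filter asks for enough counts in as many libraries as a group holds. A gene low in most groups is therefore tested only if it is high in another. These counts and this median depend in part on that filter and are not read as a result about the targets. Ccn1, a secreted matrix protein, averaged 119 ± 33.3 CPM in D10 ICM and 17.3 ± 9.43 CPM in E4 ICM (log2 2.83 ± 0.56, adjusted p = 0.000703, edgeR). Myof, the membrane protein myoferlin, averaged 106 ± 42.6 CPM in D10 ICM and 15.7 ± 10.3 CPM in E4 ICM (log2 2.55 ± 0.42, adjusted p = 0.000108). F3, tissue factor, had 28 pooled counts in D10 ICM and 2 in E4 ICM, a ratio of 10.9 with an exact 95% interval of 2.75 to 94.5. Nt5e, which encodes CD73, was the one that fell, to 9.63 ± 5.38 CPM in D10 ICM, against 39.0 ± 16.5 CPM in E4 ICM (log2 -1.95 ± 0.56, adjusted p = 0.0136).

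In the TE, Myof alone of these 5 passed, against 21.8% of all genes, and the same limit of the filter holds. Myof averaged 179 ± 67.0 CPM at D10 and 13.0 ± 8.07 CPM at E4 (log2 3.83 ± 0.44, adjusted p = 8.87e-07, edgeR). Between the tissues, Ccn1 was higher in D10 ICM than in D10 TE (log2 2.30 ± 0.50, adjusted p = 0.00105) and Nt5e was higher in ICM at D10 (2.16 ± 0.79, adjusted p = 0.0455) and at E4 (3.08 ± 0.70, adjusted p = 0.00144). F3 had 2 pooled counts in E4 ICM and 21 in E4 TE (ratio 0.0828, interval 0.00941 to 0.339).

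Marker lists differed between the times too, and their part in the D10 against E4 differences of either tissue was not tested. In the ICM, 5 of 10 tested primitive endoderm markers were higher at D10 and 1 lower, and the sum was carried by Sparc (4697 ± 1229 CPM in D10 ICM and 1173 ± 534 CPM in E4 ICM), Dab2 and Lama1. Gata6, of the same list, was lower at D10 (log2 -1.04 ± 0.30, adjusted p = 0.0139, edgeR), and Gata4, Sox17, Sox7 and Pdgfra did not pass. Of 9 tested epiblast markers, 0 were higher and 5 lower in D10 ICM than in E4 ICM by edgeR, and of 9 trophectoderm markers 4 were higher and 0 lower. Of all 6943 genes tested, 951 were higher and 692 lower in D10 ICM than in E4 ICM. In the TE, the sums of primitive endoderm markers (2666 to 3904 CPM at D10 and 1053 to 1485 CPM at E4) and of uterine epithelium markers (589 to 768 CPM at D10 and 193 to 368 CPM at E4) did not overlap between the times. The first was carried by Dab2 (2595 ± 288 CPM in D10 TE and 951 ± 154 CPM in E4 TE) and the second by Wfdc2 and Lif, both higher at D10. Dab2 averaged less in the ICM, at 1691 ± 448 CPM at D10 and 356 ± 143 CPM at E4. Summed trophectoderm markers overlapped (8556 to 11095 CPM in D10 TE and 8121 to 11309 CPM in E4 TE), but single genes changed in both directions. Of 9 tested in the TE, 2 were higher at D10 and 1 lower, against 21.8% of all genes passing. Cdx2 (log2 1.11 ± 0.28, adjusted p = 0.00491, edgeR) and Tfap2c (0.75 ± 0.22, adjusted p = 0.0151) were higher, and Eomes was lower (-1.36 ± 0.23, adjusted p = 9.56e-05).

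Polarity and adhesion genes set apical and junctional domains upstream of the cascade, and 18 of them were tested. At D10 4 were higher and 2 lower in the ICM, and 4 higher and 4 lower in the TE. Of all genes, 23.7% passed in the ICM and 21.8% in the TE. Pard3, an apical polarity scaffold, averaged 279 ± 44.3 CPM in D10 ICM and 110 ± 13.6 CPM in E4 ICM (log2 1.32 ± 0.26, adjusted p = 0.000764, edgeR). In the TE it averaged 448 ± 133 CPM at D10 and 139 ± 63.1 CPM at E4 (1.65 ± 0.26, adjusted p = 4.71e-05). Pals1, a Crumbs complex scaffold, was higher at D10 in the ICM (log2 1.18 ± 0.31, adjusted p = 0.00784) and in the TE (1.37 ± 0.30, adjusted p = 0.00145). Crb3, its transmembrane partner, was lower at D10 in the ICM (-1.42 ± 0.42, adjusted p = 0.0141) and in the TE (-1.69 ± 0.40, adjusted p = 0.00328).

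Llgl2, a basolateral polarity protein, was higher in D10 ICM than in E4 ICM (log2 0.86 ± 0.22, adjusted p = 0.00573, edgeR). Rhoa, the small GTPase of actin contractility, was lower in D10 TE than in E4 TE (-0.83 ± 0.20, adjusted p = 0.00418). Between ICM and TE, 2 of the 18 were higher and 3 lower at D10, and 2 higher and 6 lower at E4. Of all genes, 25.5% passed at D10 and 31.2% at E4. Prkci, an atypical protein kinase C of the apical domain, was higher in ICM at D10 (log2 0.88 ± 0.23, adjusted p = 0.00512) and at E4 (1.35 ± 0.23, adjusted p = 7.59e-05), and its paralog Prkcz was lower in ICM at E4 (-1.75 ± 0.35, adjusted p = 0.000427). Ezr, which encodes the apical linker ezrin, was higher in ICM at both times (log2 1.53 ± 0.39 at D10 and 2.28 ± 0.46 at E4).

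**Figure D4:**
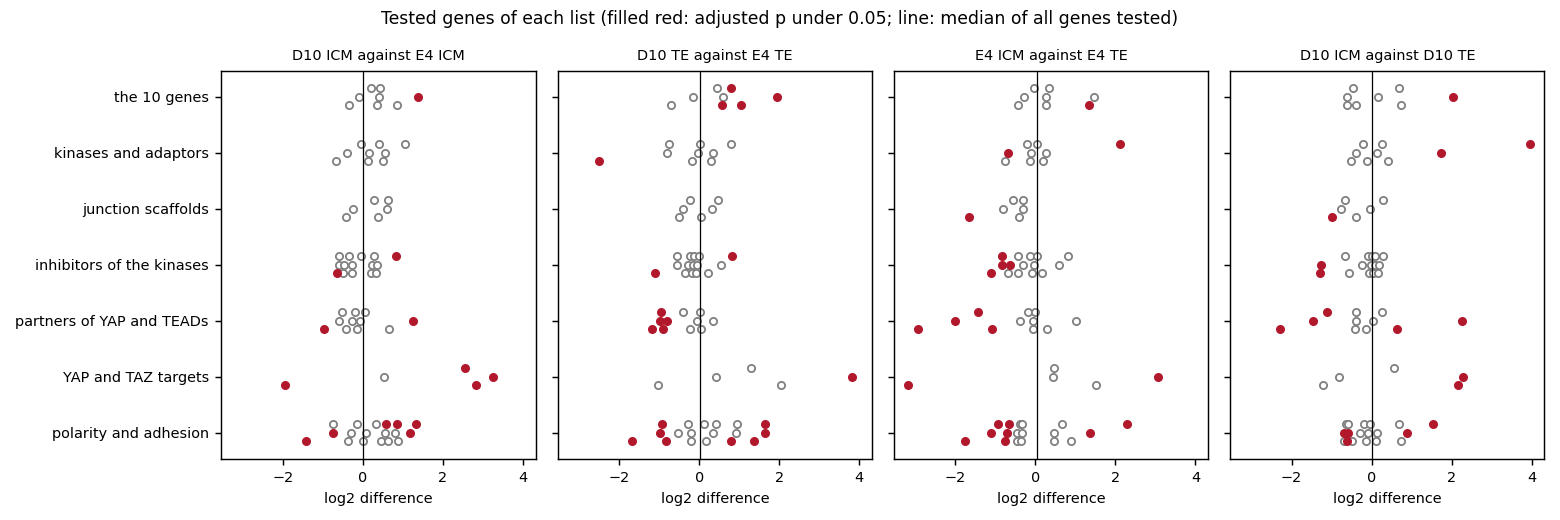
Log2 differences (horizontal axis, shared) of the tested genes of each list in 4 comparisons, with red filled points for an adjusted p under 0.05, small vertical offsets for legibility and a line at the median of all genes tested. The top row holds the 8 tested members, all 4 red points of which lie right of the line for D10 TE against E4 TE.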

How the data were processed

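Per the labels' protocols, RNA of each dissected tissue received its own barcode at reverse transcription from an oligo-dT primer, and the 5 replicates of a group were then amplified together (BRB-seq, which reads 3′ ends). The authors deposited raw counts per gene for 20 barcoded libraries, which were used as deposited. Tools named in the submitters' processing notes are HISAT2 2.2.1, featureCounts 2.0.1, Trim Galore 0.6.7 and UMI-tools, and the builds are GRCh38 and GRCm38, without roles. The sources used here do not give the annotation, the use of strand, or any collapsing by molecular identifier. How many embryos went into a library is not stated. The p-values reflect variation among libraries of 5 different litters at each time, part of which may be technical.

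The fit was edgeR 4.0.16 (R 4.3.3), quasi-likelihood, TMM scaling and filterByExpr with a minimum count of 10, on 1 model of 4 groups, with Benjamini-Hochberg adjustment over the 6943 genes that passed. It was tested on simulated data. CPM use TMM factors, and log2 CPM a prior count of 2. Alternatives were other scalings, filters and thinning, limma 3.58.1 voom, DESeq2 1.42.0, subsets of groups or litters and single libraries left out. Each of the 10 E4 and D10 ICM and TE pairs with the same number came from 1 litter, per the deposited barcode list. Paired libraries deviated together from their group means with 1 exception, with correlations over genes of 0.104 to 0.263 at E4 and -0.0302 to 0.293 at D10, and litter was the block in an alternative for the tissue comparisons.

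The 10 genes and all lists were chosen with earlier results of these data known. All 10 are named, with up to 4 genes of each list per comparison by smallest adjusted p (2 of these are not reported here), and the 3 genes nearest to Amot by root mean square difference. The ratios and permutation tests of genes with few counts (scipy 1.17.1) and the alternative without Y-linked transcripts were chosen after seeing the data. Amino acid sequences were not used here.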

Additional observations from a re-analysis of the deposited data

Results flagged for a closer look

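Of 40 gene and group combinations, 2 held a library far from the other 4, where chance gives about 1 in 20. Amotl1 had 8.60 CPM (2 counts) in E4 ICM replicate 5, against 0 to 2.32 CPM in the other E4 ICM libraries, a gap of 0.731 of the range with a critical value of 0.71. Lats2 had 10.9 CPM in D10 TE replicate 5, against 34.7 to 43.7 CPM in the other D10 TE libraries, a gap of 0.725 of the range.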

How the results depend on the processing

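Rescaling by DESeq2's size factors or by upper quartiles kept the direction and the side of the threshold for each of the 8 tested members in all 5 comparisons. Members called for D10 ICM against E4 ICM (1) were 2 with no filter and with limma voom, and 1 to 2 with 1 library left out. Those for D10 TE against E4 TE (4) were 2 in libraries thinned to 144276 counts, 1 without the E4 litters with a zona, 1 without the libraries with Y-linked transcripts, and 1 to 3 with 1 library left out. Those for E4 ICM against E4 TE (1) were 2 with no filter and 1 to 2 with 1 library left out. Those for D10 ICM against D10 TE (1) were 2 with no filter, 3 with limma voom, 3 with litter as the replicate block in the paired fit, 0 with a minimum count of 30 or thinned, where Ajuba failed the filter, and 1 to 2 with 1 library left out. The paired fit changed no other call of a member.

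Genes called for D10 ICM against E4 ICM (1643) were 874 thinned and 1064 without the libraries with Y-linked transcripts. For D10 TE against E4 TE (1513) they were 1003 with a minimum count of 30 and 791 thinned, for E4 ICM against E4 TE (2165) 1404 and 1231, and for D10 ICM against D10 TE (1771) 1170 and 897. For the difference of the changes (346) they were 538 with no filter, 163 thinned, 198 without the E4 litters with a zona and 216 without the libraries with Y-linked transcripts.

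Signs turned only for members that passed in neither setting. For D10 ICM against E4 ICM these were Ajuba without the litters with a zona (log2 -0.0272), Lats2 without Y-linked transcripts (-0.0025) and Tead1 with 1 library left out (-0.25 to 0.13). For D10 TE against E4 TE it was Ajuba with limma voom (0.0859) and with 1 library left out (-0.43 to 0.29). For E4 ICM against E4 TE these were Yap1 thinned (0.13) and with 1 library left out (-0.11 to 0.0216), and Nf2 without the litters with a zona (-0.14). For the difference of the changes these were Amotl2 thinned (0.19), with limma voom (0.0227) and with 1 library left out (-0.36 to 0.31), Nf2 with limma voom (0.0357), without the litters with a zona (0.31), without Y-linked transcripts (0.03455) and with 1 library left out (-0.26 to 0.17), and Lats2 with 1 library left out (-0.43 to 0.11). The causes were not tested. Amotl1 and Lats1 had too few counts for the filter: with none, Amotl1 passed for D10 TE against E4 TE (log2 3.37, adjusted p = 0.00331, edgeR) and Lats1 in no comparison.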

Other observations

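The 14-3-3 proteins bind phosphorylated YAP and hold it in the cytoplasm. On the list of partners, 3 of the 6 tested genes for them were lower in D10 TE than in E4 TE. Of all 6943 genes tested, 687 were lower there, and 21.8% passed in either direction. These 3 are among the 5 partners already counted as lower in that comparison. The other 3 did not pass there: Ywhab had log2 -0.23 (adjusted p = 0.369), Ywhae -0.07 (adjusted p = 0.828) and Ywhag 0.05 (adjusted p = 0.870, edgeR). Ywhaq averaged 310 ± 55.2 CPM in D10 TE and 602 ± 107 CPM in E4 TE, and fell by 0.96 ± 0.19 on the log2 scale (adjusted p = 0.000599, edgeR). Ywhaz averaged 203 ± 35.2 CPM in D10 TE and 378 ± 47.1 CPM in E4 TE (log2 -0.90 ± 0.21, adjusted p = 0.00241). Ywhah averaged 200 ± 40.0 CPM in D10 TE and 352 ± 56.6 CPM in E4 TE (log2 -0.82 ± 0.19, adjusted p = 0.00345). In the ICM, Ywhaz was the one of the 6 that passed, against 23.7% of all genes. It averaged 180 ± 50.9 CPM at D10 and 365 ± 82.4 CPM at E4 (log2 -0.98 ± 0.21, adjusted p = 0.00140). Ywhaq averaged 480 ± 83.8 CPM in D10 ICM and 467 ± 83.8 CPM in E4 ICM, and its changes differed between the tissues (log2 1.01 ± 0.27, ICM minus TE, adjusted p = 0.0249, edgeR).

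The Y-linked sum was alike, above or below 50 CPM in both, in 10 of 10 pairs of ICM and TE libraries from the same litter.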
